A study of Mus musculus with 6 samples.

Results

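The 10 genes described here belong to the integrated stress response and were chosen by symbol: *Atf4*, *Atf5*, *Ddit3*, *Trib3*, *Ppp1r15a*, *Chac1*, *Sesn2*, *Asns*, *Gdf15* and *Fgf21*. They are 10 of the 49671 genes in the count table of liver RNA, and each symbol matched 1 Ensembl gene of that table. RNA was sequenced from whole livers of 3 SHMT2 fl/fl mice, homozygous for a floxed allele and free of Cre, and of 3 SHMT2 HKO mice, which carry the same floxed alleles together with Albumin-Cre. All 6 were male, on the C57BL/6J background, and were put on the AMLN diet, a feed with much fat, fructose and cholesterol, when 4 weeks old. They were fasted and harvested at 22 weeks of age, after 18 weeks of that diet. The deposited labels name these groups WT and KO. Albumin-Cre was used to target hepatocytes, and the paper proposes that SHMT2 in the other cells of the liver was not affected. *Shmt2* was not measured by cell type here, and no mice on a chow diet were sequenced. In bulk liver, fewer cells of a type and less RNA per cell cannot be told apart.

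The integrated stress response starts when a kinase phosphorylates the translation factor eIF2 alpha, which lowers protein synthesis but favors translation of a few messages, *Atf4* foremost. ATF4 and its partners then switch on genes for amino acid supply, redox balance and feedback, and CHOP, encoded by *Ddit3*, joins under lasting stress. In mammals, defects of mitochondrial translation or one-carbon supply are known triggers, and SHMT2 is the mitochondrial enzyme that turns serine into glycine and a one-carbon unit. *Gdf15* and *Fgf21* encode circulating hormones of the same program, and the liver is a main source of FGF21. ATF4 is set largely at translation, which RNA sequencing does not read.

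ATF4 pairs with C/EBP proteins on a response element with the core TGATGNAA, or TTNCATCA on the other strand. That core was searched on both strands of the RefSeq promoter windows of GRCm38.p6, 250 bases before to 50 bases after each start. The 10 genes had 12 windows, and 4 genes held a core, against 3.97% of all 32851 windows and 4.51% of 27025 genes. The 4 stretches are shown because the fitted changes of their genes differed in direction. *Asns*, *Trib3* and *Fgf21* were fitted lower in SHMT2 HKO livers and *Chac1* higher, as described further on. Only *Asns* and *Trib3* passed the test given there. Each is written 5′ to 3′ on the strand of its gene, with the core in capitals.
Chac1, chr2:119351033-119351072, plus strand: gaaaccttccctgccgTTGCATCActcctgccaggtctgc
Trib3, chr2:152344028-152344057, minus strand: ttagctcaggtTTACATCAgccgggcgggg
Asns, chr6:7693210-7693248, minus strand: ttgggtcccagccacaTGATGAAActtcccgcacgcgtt
Fgf21, chr7:45615606-45615645, minus strand: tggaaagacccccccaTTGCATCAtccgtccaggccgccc
The first base of the core lay at -193 in *Chac1*, -139 in *Fgf21* and -23 in *Asns*, counted back from the start. In *Trib3* it lay at 15, counting the RefSeq start as 1. These positions hold for the RefSeq starts, at base 7693209 for *Asns* and 152344060 for *Trib3*. The gene coordinates given below are from GENCODE, where the 2 genes start at 7693254 and 152344032. By those coordinates the *Asns* stretch lies inside the gene and the *Trib3* core before it. The windows of *Atf4*, *Atf5*, *Ddit3*, *Ppp1r15a*, *Sesn2* and *Gdf15* did not hold these letters. A match is a description of the sequence, and binding was not measured.

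Counts on genes ranged from 23090837 to 34089722 per liver. Levels are given as CPM, read counts over the size of each library, which was scaled by the trimmed mean of M-values method (TMM) of edgeR. Of 16089 genes with enough counts to test, 12.5% were higher and 16.5% were lower in SHMT2 HKO livers at an adjusted p under 0.05 (edgeR's quasi-likelihood test, adjusted over all genes tested by the Benjamini-Hochberg method). The targeted gene *Shmt2* measured 94.5, 109 and 93.8 CPM in mice 1, 2 and 3 of the SHMT2 fl/fl genotype and 24.9, 28.2 and 19.3 CPM in those of the SHMT2 HKO genotype (two-sided exact permutation test, p = 0.1, which is the lowest value open to 3 against 3). Every pair of mice of a genotype differed by more than sampling noise. TMM factors were 1.13 to 1.21 in SHMT2 fl/fl livers and 0.802 to 0.984 in SHMT2 HKO livers, with the highest of the latter in mouse 3. Without TMM the median log2 fold change of all genes was -0.40, and scaled to the added ERCC RNAs it was -0.69, against 0.03 here, so each difference below is relative to a scale that these choices move. Transcripts of the mitochondrial genome took 3.48% ± 0.206 (SD, n = 3) of counts in SHMT2 fl/fl and 4.63% ± 0.336 (SD, n = 3) in SHMT2 HKO livers (two-sided exact permutation test, p = 0.1).

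Markers of other liver cells moved with genotype, and these values stand beside every result below. All 6 cholangiocyte markers (*Krt19*, *Krt7*, *Epcam*, *Sox9*, *Spp1*, *Cftr*) fell, and their summed level was 955 to 1186 CPM in SHMT2 fl/fl and 128 to 245 CPM in SHMT2 HKO livers. Of 8 stellate cell and fibroblast markers 5 fell, with sums of 1445 to 1499 against 329 to 860 CPM. Of 9 macrophage and leukocyte markers 6 fell and 1 (*Clec4f*, of resident Kupffer cells) rose, with sums of 520 to 679 against 316 to 371 CPM. Of 8 hepatocyte markers 2 rose and 0 fell, and of 6 endothelial markers 2 rose and 0 fell, with medians of 0.62 and 0.48 that turned to -0.20 and -0.21 on the ERCC scale. The number of stellate markers called lower was 3 without SHMT2 fl/fl mouse 2 or 3 or SHMT2 HKO mouse 2 and 7 without SHMT2 HKO mouse 3. The number of hepatocyte markers called higher was 4 without that mouse and 1 without any other mouse, and 4 endothelial markers were higher without SHMT2 HKO mouse 1. No marker was at 0 in all livers. Hepatocyte markers summed to 54368 to 66301 CPM in SHMT2 fl/fl livers and to 102791, 102334 and 68903 CPM in SHMT2 HKO mice 1, 2 and 3. SHMT2 HKO mouse 3 thus lay closest to the SHMT2 fl/fl livers in hepatocyte, stellate and cholangiocyte sums, and results are given with and without it where that matters. It was also closest in the macrophage and leukocyte sum, at 371 CPM against 316 and 362 CPM in SHMT2 HKO mice 1 and 2. In the endothelial sum mouse 3 lay farthest from the SHMT2 fl/fl livers, at 265 CPM against 227 and 262 CPM in SHMT2 HKO mice 1 and 2. That sum was 160 to 185 CPM in SHMT2 fl/fl livers.

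All 10 genes had enough counts to test. In SHMT2 HKO livers 3 of the 10 were lower (*Asns*, *Trib3*, *Sesn2*), beside 16.5% of all genes tested, and 0 were higher, beside 12.5%, by edgeR's quasi-likelihood test. At an unadjusted p under 0.05, 4 were lower and 1 was higher, beside 21.8% and 19.5% of all genes tested. At an adjusted p under 0.05 DESeq2 called 1 higher, *Chac1*, beside 15.8% of all genes, and limma-voom 0, beside 12.4%. The fitted log2 fold change was below 0 for 7 genes and above 0 for 3, with a median of -0.29, while 48.1% of all genes tested were below 0. Values of the genotypes did not overlap for 5 genes, 4 of them lower and 1 (*Atf4*) higher in SHMT2 HKO. Of all genes tested, 46.9% did not overlap, and 25.0% did not overlap and were lower in SHMT2 HKO. Both counts rest on few genes and no set was tested. Leaving out SHMT2 fl/fl mouse 1, 2 or 3 left 1 gene called lower, *Trib3*, while the share of all genes called lower dropped as well, to 10.8%, 10.2% and 9.92%. Leaving out SHMT2 HKO mouse 3 raised the count to 5 and the share of all genes to 18.3%.

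**Figure D1:**
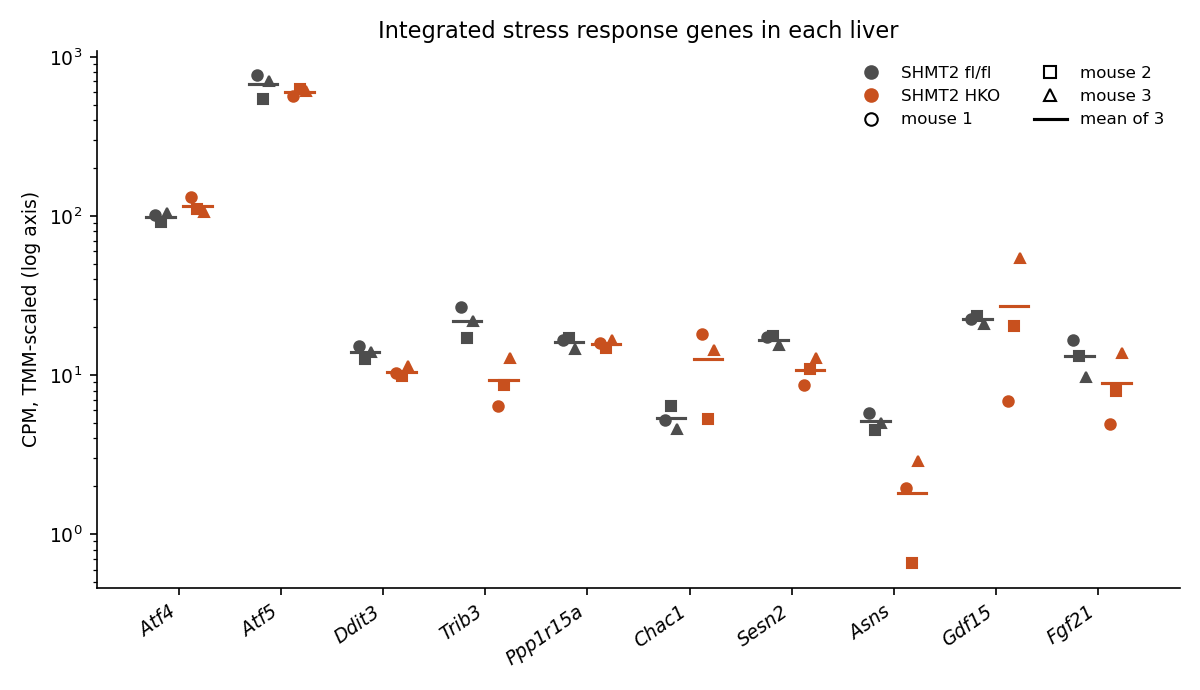
TMM-scaled CPM (log axis) of the 10 genes in each liver, SHMT2 fl/fl in gray and SHMT2 HKO in orange, with a symbol for each mouse number and a line at the mean of 3. *Asns*, *Trib3* and *Sesn2* lie lower in every SHMT2 HKO liver, *Chac1* is raised in mice 1 and 3 but not in mouse 2, and *Gdf15* runs from 6.83 to 54.3 CPM among SHMT2 HKO livers.

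None of the transcription factor genes passed the test. *Atf4* (ENSMUSG00000042406, chr15:80255184-80257541, plus strand, 1 merged exon), the central regulator, measured 102, 91.6 and 104 CPM in SHMT2 fl/fl and 132, 110 and 106 CPM in SHMT2 HKO mice 1, 2 and 3. The groups did not overlap, but the highest SHMT2 fl/fl and the lowest SHMT2 HKO liver were close. Its fitted log2 fold change was 0.23 (95% interval -0.07 to 0.53, adjusted p = 0.230), and it turned to -0.21 without TMM and to -0.54 on the ERCC scale.

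*Atf5* (ENSMUSG00000038539, chr7:44812256-44816658, minus strand, 4 merged exons) encodes a factor related to ATF4 that is linked to the mitochondrial unfolded protein response and is abundant in liver. It measured 767, 546 and 708 CPM in SHMT2 fl/fl and 566, 627 and 608 CPM in SHMT2 HKO mice 1, 2 and 3. All SHMT2 HKO values lay inside the SHMT2 fl/fl range, with a log2 fold change of -0.17 (95% interval -0.56 to 0.23, adjusted p = 0.504). Its exons share 82 bases with *Nup62* and *Il4i1* on the other strand, and the handling of reads over both genes is not given in the sources used here.

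*Ddit3* (ENSMUSG00000025408, chr10:127290774-127296288, plus strand, 4 merged exons) encodes CHOP and lies 220834 bases from *Shmt2* on the same chromosome. It measured 15.1, 12.6 and 13.97 CPM in SHMT2 fl/fl and 10.3, 9.81 and 11.3 CPM in SHMT2 HKO mice 1, 2 and 3. Each SHMT2 HKO value was below each SHMT2 fl/fl value, yet the log2 fold change of -0.41 (95% interval -0.73 to -0.08) had an adjusted p of 0.0624 by edgeR's quasi-likelihood test. Without SHMT2 HKO mouse 3 it was -0.49 with an adjusted p of 0.0408. Its exons share 68 bases with *Mars*, 13 with *Gm4189* and 105 with a second annotated *Ddit3* locus.

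Of the genes that feed back on the response, *Trib3* fell and *Ppp1r15a* did not differ beyond its spread. *Trib3* (ENSMUSG00000032715, chr2:152337422-152344032, minus strand, 4 merged exons) encodes a pseudokinase that is induced by ATF4 and CHOP and dampens them. It measured 26.6, 17.1 and 22.0 CPM in SHMT2 fl/fl and 6.40, 8.65 and 12.7 CPM in SHMT2 HKO mice 1, 2 and 3. No SHMT2 HKO liver reached the lowest SHMT2 fl/fl liver. The log2 fold change was -1.24 (standard error 0.27, 95% interval -1.85 to -0.63, adjusted p = 0.0112 by edgeR's quasi-likelihood test), and its adjusted p stayed under 0.05 in all 16 alternative fits.

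*Ppp1r15a* (ENSMUSG00000040435, chr7:45522916-45526268, minus strand, 2 merged exons) encodes GADD34, which directs a phosphatase to eIF2 alpha and so ends the response. It measured 16.5, 17.0 and 14.6 CPM in SHMT2 fl/fl and 15.9, 14.9 and 16.6 CPM in SHMT2 HKO mice 1, 2 and 3. The ranges overlapped almost fully, and the log2 fold change of -0.02 had a 95% interval of -0.32 to 0.27 (adjusted p = 0.909).

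*Chac1* was the gene with the largest fitted increase, and it went up in 2 of 3 mice. It (ENSMUSG00000027313, chr2:119351229-119354381, plus strand, 3 merged exons) encodes an enzyme that breaks down glutathione. It measured 5.20, 6.39 and 4.56 CPM in SHMT2 fl/fl and 18.1, 5.26 and 14.3 CPM in SHMT2 HKO mice 1, 2 and 3. Mice 1 and 3 lay above all SHMT2 fl/fl livers, at 3.36 and 2.65 times their mean, while mouse 2 lay within their range at 0.977 times. Its fitted log2 fold change was 1.23 (95% interval 0.31 to 2.15), with an adjusted p of 0.0519 by edgeR's quasi-likelihood test, 0.00821 by DESeq2 and 0.0774 by limma-voom. Without SHMT2 HKO mouse 2 it was 1.59 with an adjusted p of 0.00734, and without each other mouse in turn it was 0.88 to 1.36 with adjusted p of 0.102 to 0.158. On the ERCC scale it was 0.56 with an adjusted p of 0.483.

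The genes for amino acid sensing and supply were lower. *Sesn2* (ENSMUSG00000028893, chr4:132492032-132510501, minus strand, 10 merged exons) encodes a leucine-binding protein that holds back the growth kinase mTORC1. It measured 17.2, 17.6 and 15.4 CPM in SHMT2 fl/fl and 8.69, 10.9 and 12.8 CPM in SHMT2 HKO mice 1, 2 and 3. The groups did not overlap, and the log2 fold change was -0.63 (standard error 0.17, 95% interval -1.02 to -0.24, adjusted p = 0.0256 by edgeR's quasi-likelihood test). With 1 mouse left out in turn it ranged from -0.80 to -0.49, and its adjusted p was above 0.05 in 4 of 6 such fits, those without SHMT2 HKO mouse 2 or any 1 SHMT2 fl/fl mouse.

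*Asns* (ENSMUSG00000029752, chr6:7675169-7693254, minus strand, 13 merged exons) encodes asparagine synthetase, a standard ATF4 target. It measured 5.82, 4.55 and 5.01 CPM in SHMT2 fl/fl and 1.95, 0.658 and 2.87 CPM in SHMT2 HKO mice 1, 2 and 3. The highest SHMT2 HKO liver was well below the lowest SHMT2 fl/fl liver. The value in SHMT2 HKO mouse 2 rests on 13 counts, with a 95% Poisson interval of 0.350 to 1.12 CPM that covers counting error only. The log2 fold change was -1.47 (standard error 0.44, 95% interval -2.47 to -0.47, adjusted p = 0.0362 by edgeR's quasi-likelihood test), which is 2.77-fold lower. Without SHMT2 HKO mouse 3 it was -1.98 with an adjusted p of 0.0106, and with any 1 SHMT2 fl/fl mouse left out the adjusted p was 0.0789 to 0.116.

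**Figure D2:**
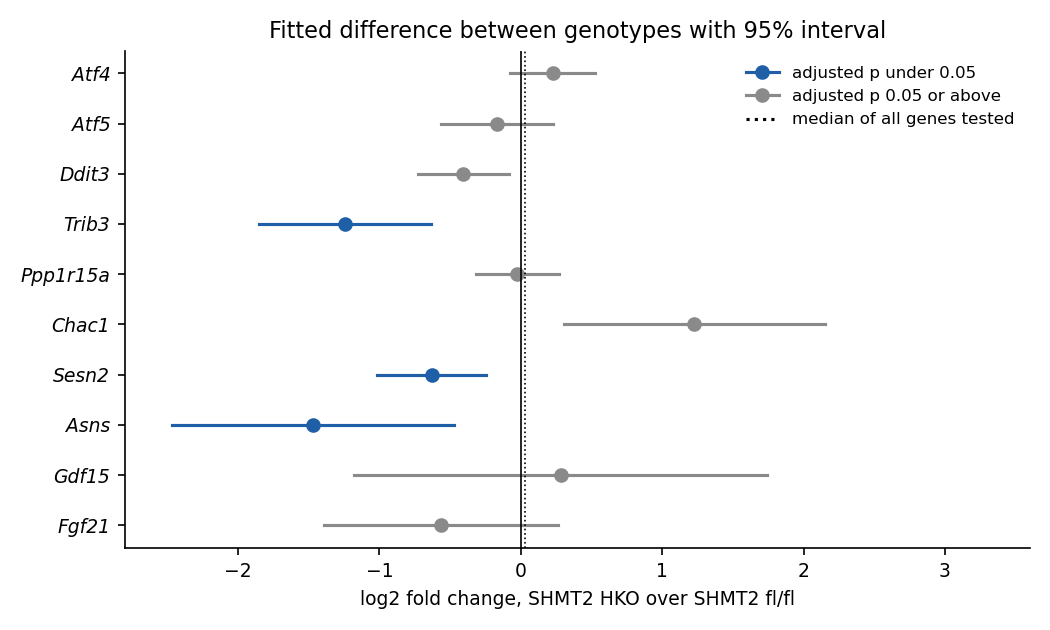
Fitted log2 fold change of SHMT2 HKO over SHMT2 fl/fl livers with its 95% interval for the 10 genes, in blue where the adjusted p was under 0.05. The intervals of *Trib3*, *Sesn2* and *Asns* lie below 0, as does that of *Ddit3* at an adjusted p of 0.0624, that of *Chac1* lies above 0 at an adjusted p of 0.0519, that of *Atf4* spans 0 and its estimate turns negative without TMM, and that of *Gdf15* is the widest.

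The genes of the secreted factors overlapped between genotypes. *Gdf15* (ENSMUSG00000038508, chr8:70629393-70632456, minus strand, 3 merged exons) encodes a stress hormone that lowers food intake. It measured 22.7, 23.7 and 20.9 CPM in SHMT2 fl/fl and 6.83, 20.5 and 54.3 CPM in SHMT2 HKO mice 1, 2 and 3. The SHMT2 fl/fl livers lay close together, whereas the highest SHMT2 HKO liver was 7.95 times the lowest. The log2 fold change of 0.28 (95% interval -1.18 to 1.74, adjusted p = 0.762) turned to -0.74 without SHMT2 HKO mouse 3, to -0.052 without TMM and to -0.037 on the ERCC scale, and limma-voom gave -0.16.

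*Fgf21* (ENSMUSG00000030827, chr7:45613886-45615490, minus strand, 3 merged exons) encodes a liver hormone of fasting and stress that PPAR alpha also induces. It measured 16.6, 13.2 and 9.72 CPM in SHMT2 fl/fl and 4.96, 7.99 and 13.8 CPM in SHMT2 HKO mice 1, 2 and 3. SHMT2 HKO mice 1 and 2 lay below all SHMT2 fl/fl livers and mouse 3 within their range. The log2 fold change was -0.56 (95% interval -1.39 to 0.26, adjusted p = 0.275), and without SHMT2 HKO mouse 3 it was -1.05 with an adjusted p of 0.0353 by edgeR's quasi-likelihood test. Without SHMT2 HKO mouse 1 it was -0.27 (adjusted p = 0.514) and without SHMT2 fl/fl mouse 1 it was -0.36 (adjusted p = 0.573).

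Compared per kilobase of merged exons, *Atf5* was the most abundant of the 10 in both genotypes, at 338 ± 57.5 CPM per kb (SD, n = 3) in SHMT2 fl/fl and 301 ± 15.8 (SD, n = 3) in SHMT2 HKO livers. *Atf4* followed at 42.0 ± 2.76 and 49.1 ± 6.07 CPM per kb (SD, n = 3 each). In SHMT2 fl/fl livers the order went on with *Fgf21* (13.9 CPM per kb), *Gdf15* (12.1), *Trib3* (10.3), *Ddit3* (8.11), *Ppp1r15a* (5.47), *Sesn2* (4.81), *Chac1* (3.29) and *Asns* (1.87). Neighbors from *Fgf21* to *Ddit3* overlapped in range, as did *Ppp1r15a* and *Sesn2*. In SHMT2 HKO livers *Gdf15* (14.7 CPM per kb) stood above *Fgf21* (9.36), *Chac1* moved up to between *Fgf21* and *Ddit3* at 7.66 ± 4.03 CPM per kb (SD, n = 3), and *Trib3* moved down to between *Ppp1r15a* and *Sesn2* at 4.36 ± 1.51 (SD, n = 3). *Asns* was last in both genotypes, at 0.668 ± 0.406 CPM per kb (SD, n = 3) in SHMT2 HKO. Ranges of neighbors from *Gdf15* to *Ddit3* and from *Ppp1r15a* to *Sesn2* overlapped there.

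Within SHMT2 HKO, mouse 3 had the highest CPM of 7 of the 10 genes (*Ddit3*, *Trib3*, *Asns*, *Sesn2*, *Gdf15*, *Fgf21*, *Ppp1r15a*). Without TMM *Atf5* was highest in mouse 3 as well. The share of all genes tested that were highest in that mouse was not computed. The coefficient of variation was larger in SHMT2 HKO than in SHMT2 fl/fl livers for 7 of 10 genes, up to 89.8% for *Gdf15* against 6.39%. Over all genes tested, SHMT2 HKO mice also differed more from each other. The mean squared deviation of counts over its sampling variance, without TMM, was 66.1 to 151 for their pairs. It was 26.9 to 56.0 for pairs of SHMT2 fl/fl mice. The share of all genes with a larger coefficient in SHMT2 HKO was not computed. *Trib3*, *Sesn2*, *Gdf15* and *Fgf21* followed the same order of SHMT2 HKO mice, with mouse 1 lowest and mouse 3 highest. The stellate cell, leukocyte, cholangiocyte and endothelial marker sums did so too, and the hepatocyte sum ran the other way. Mice 1 and 2 were almost equal in the cholangiocyte sum (127.9 and 128.2 CPM) and in the hepatocyte sum (102791 and 102334 CPM). Of the lists described below, sums of transporters, paralogs, p53 targets, immediate early genes and other ATF4 and CHOP targets took this order. Sums of the eIF2, tRNA synthetase and ER lists ran the other way, and the remaining lists took neither order. A sum follows its most abundant genes, and genes of a list did not all share its order. Of the transporters, *Slc1a5*, *Slc7a1* and *Slc7a11* were each highest in mouse 1, whereas *Slc6a9* was lowest in mouse 1 and highest in mouse 3. *Chac1* and *Atf4* were highest in mouse 1, and *Asns* and *Chac1* were lowest in mouse 2. The part of cell composition in these orders was not tested.

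**Figure D3:**
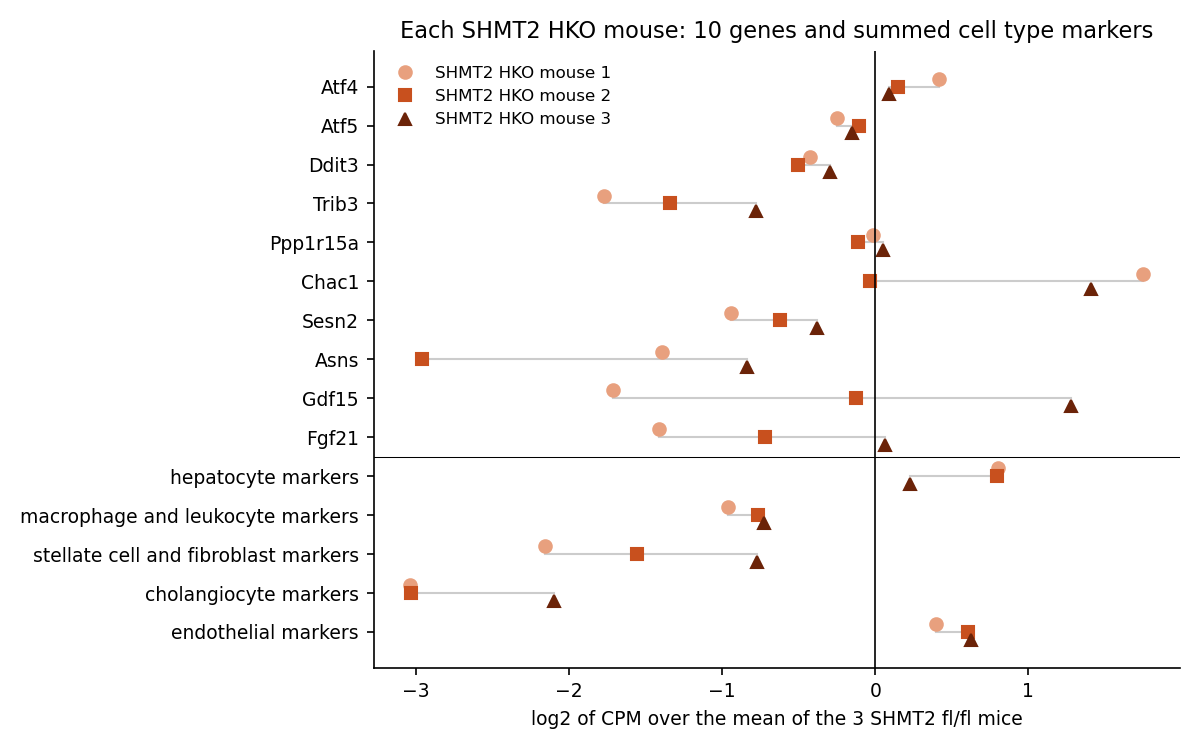
log2 of the CPM of each SHMT2 HKO mouse over the mean of the 3 SHMT2 fl/fl mice, for the 10 genes (top) and for summed markers of 5 cell types (bottom), with a symbol for each mouse. Mouse 3 lies nearest to or above 0 for *Trib3*, *Sesn2*, *Asns*, *Gdf15* and *Fgf21*. It also lies nearest to 0 for hepatocyte, stellate, leukocyte and cholangiocyte markers but farthest from 0 for endothelial markers. Without TMM the hepatocyte sums of the genotypes overlap (64421 to 74605 against 67796 to 83338 CPM).

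Genes around the 10 were read from 12 lists of 137 genes. Upstream, 3 of 17 genes for eIF2 alpha kinases, eIF2, eIF2B and their regulators were higher and 0 lower, with a list median of 0.14 that turned to -0.29 without TMM, where 0 were higher and 3 lower, and to -0.62 on the ERCC scale. The 3 were *Ppp1r15b* (0.57), the constitutive partner of the eIF2 alpha phosphatase, *Eif2ak1* (0.42), the kinase HRI that relays mitochondrial stress, and *Eif2s3x* (0.41), a subunit of eIF2. Of these log2 fold changes, *Eif2ak1* and *Eif2s3x* turned below 0 without TMM and all 3 on the ERCC scale. The other kinases did not pass the test, with log2 fold changes of -0.18 for *Eif2ak2* (PKR), -0.33 for *Eif2ak3* (PERK) and -0.07 for *Eif2ak4* (GCN2). The list had 1 gene called higher without any 1 SHMT2 fl/fl mouse or SHMT2 HKO mouse 2.

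Enzymes that make serine and proline and feed one-carbon units are also induced by ATF4. Of 7 tested, 4 fell and 0 rose, with a median of -1.19. The other 3 did not pass the test, and the summed level of the list overlapped between genotypes (215 to 236 against 169 to 240 CPM). Most of that sum was *Cth*, among those 3, at 186 ± 12.5 CPM (SD, n = 3) in SHMT2 fl/fl and 186 ± 39.4 (SD, n = 3) in SHMT2 HKO livers. *Phgdh*, the first enzyme of serine synthesis, measured 4.06 ± 0.311 CPM (SD, n = 3) in SHMT2 fl/fl and 1.38 ± 0.284 (SD, n = 3) in SHMT2 HKO livers. Its log2 fold change was -1.55 (adjusted p = 0.00405 by edgeR's quasi-likelihood test). It was -1.29 for *Psat1*, which acts next in serine synthesis, -1.33 for *Aldh18a1* of proline synthesis and -1.19 for *Mthfd2* of the mitochondrial folate pathway. For each of these 4, every SHMT2 HKO liver lay below every SHMT2 fl/fl liver. Across all 16 alternative fits 3 to 6 of the list were lower and 0 higher.

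Of 8 amino acid transporters, 3 fell and 0 rose, with a median of -0.61. *Slc6a9*, a glycine transporter, lay higher in every SHMT2 HKO liver with a log2 fold change of 0.74 and an adjusted p of 0.0536, and DESeq2 and the fit without SHMT2 HKO mouse 1 each called 1 of the list higher. *Slc7a11*, the cystine importer that feeds glutathione synthesis, fell by 1.87 on the log2 scale from 1.93 ± 0.848 to 0.524 ± 0.301 CPM (SD, n = 3 each). *Slc7a1*, which carries cationic amino acids, had a log2 fold change of -1.42 and *Slc1a5*, which carries glutamine, one of -1.07. Of 20 cytosolic aminoacyl-tRNA synthetases, which charge tRNAs with amino acids, 4 rose (*Aars* 0.58, *Tars* 0.47, *Dars* 0.43, *Farsb* 0.40 on the log2 scale) and 1 fell (*Vars*, -0.82), with a median of 0.10 that turned to -0.32 without TMM, where 0 were higher and 6 lower. On the ERCC scale all 4 of those that rose had log2 fold changes below 0. The number called higher was 0 without SHMT2 fl/fl mouse 2 or SHMT2 HKO mouse 2, 1 without SHMT2 fl/fl mouse 3, and 2 without SHMT2 fl/fl mouse 1 or SHMT2 HKO mouse 1.

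Among 13 other targets and partners of ATF4 and CHOP tested, of 14 listed, 0 rose and 1 fell, with a median of -0.04. That gene was *Stc2*, which encodes a secreted stanniocalcin, at 12.0 ± 4.64 CPM (SD, n = 3) in SHMT2 fl/fl and 1.74 ± 0.794 (SD, n = 3) in SHMT2 HKO livers. *Nupr1*, a stress-induced chromatin protein, had a log2 fold change of -1.42 and an adjusted p of 0.0538, *Atf3* of -0.66 and *Cebpb* of 0.33, the last turning to -0.039 without TMM. DESeq2 called 3 of the list lower, against 1 here, and 4 were lower without SHMT2 HKO mouse 3. Of 5 paralogs, *Chac2* rose by 0.67 on the log2 scale, a change that turned to -0.081 on the ERCC scale, and *Trib2* fell by 1.27. Of the paralogs 0 were higher without SHMT2 fl/fl mouse 3 and 2 without SHMT2 HKO mouse 1, and 2 were lower without SHMT2 HKO mouse 3.

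Of 5 tested receptor genes for FGF21 and GDF15, 1 rose and 3 fell. *Klb*, the co-receptor for FGF21, rose by 0.87 on the log2 scale from 7.88 ± 0.470 to 14.4 ± 3.12 CPM (SD, n = 3 each), a call lost without TMM (0.43, adjusted p = 0.104) and on the ERCC scale (0.12, adjusted p = 0.879). *Fgfr1* had a log2 fold change of -2.06, *Fgfr3* of -1.46 and *Fgfr2* of -0.74, all genes of receptors that several FGF ligands use. The GDF15 receptor gene *Gfral*, known from the hindbrain, had 0 counts in all 6 livers, which allows up to 0.0733 to 0.152 CPM at 3 counts per liver.

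**Figure D4:**
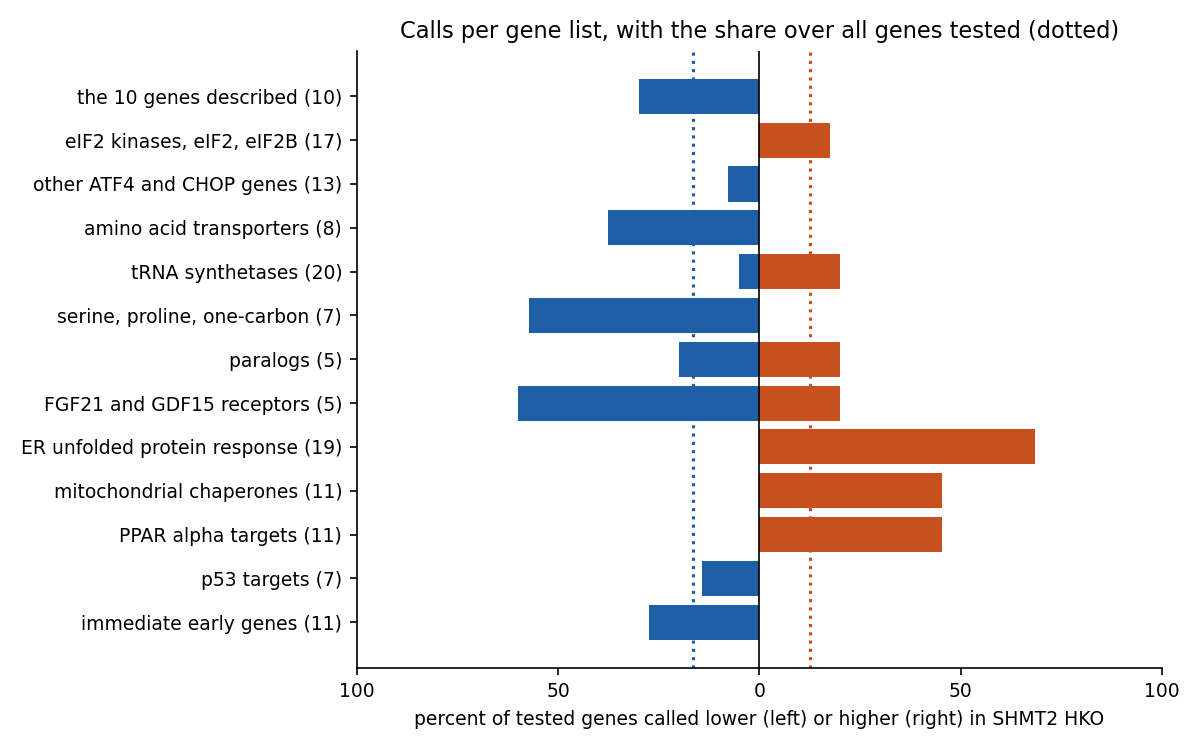
Percent of tested genes called higher (orange, right) or lower (blue, left) in SHMT2 HKO livers for the 10 genes and 12 lists, with the number tested in brackets and dotted lines at the 12.5% and 16.5% of all genes. The tRNA synthetases, the paralogs and the FGF21 and GDF15 receptors show calls in both directions. Each other row shows calls in a single direction, lower for serine, proline and one-carbon enzymes and higher for the ER unfolded protein response. The bars to the right shrink without TMM, where 2 of 19 ER genes and 0 of 11 mitochondrial chaperones were called higher.

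The unfolded protein responses of the ER and of mitochondria neighbor the integrated stress response and were read the same way. Of 19 genes of the ATF6 and XBP1 branches of the ER unfolded protein response, 13 rose and 0 fell, with a median of 0.67 that was 0.23 without TMM and turned to -0.17 on the ERCC scale. Among them *Sdf2l1*, an ER chaperone cofactor, measured 27.8 ± 1.56 against 61.3 ± 26.9 CPM (SD, n = 3 each; log2 fold change 1.14), and *Creld2*, a secreted ER stress protein, 31.1 ± 2.35 against 59.6 ± 14.5 CPM (log2 fold change 0.94). The number called was 4 without SHMT2 fl/fl mouse 2, 5 without mouse 3 and 6 without mouse 1, and 6 without SHMT2 HKO mouse 2.

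Of 11 mitochondrial chaperones and proteases 5 rose and 0 fell, with a median of 0.35 that turned to -0.07 without TMM. *Hspe1* (0.78) and *Hspd1* (0.67), the mitochondrial chaperonin pair, led, followed by *Trap1* (0.55), *Clpp* (0.51) and *Dnaja3* (0.38), all in log2 units and all below 0 on the ERCC scale. The number called was 0 without SHMT2 fl/fl mouse 3, 1 without mouse 1, 2 without mouse 2 and 1 without SHMT2 HKO mouse 2.

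Of 11 PPAR alpha targets other than *Fgf21*, 5 rose and 0 fell, with a median of 0.77. Among them were *Vnn1* (1.13), which encodes a pantetheinase, *Cpt1a* (0.59), which encodes the enzyme that admits fatty acids to mitochondria, and *Creb3l3* (0.56), which encodes a liver factor that also acts on *Fgf21*, in log2 units. *Cpt1a* and *Creb3l3* turned below 0 on the ERCC scale. The number called higher was 3 without any 1 SHMT2 fl/fl mouse or SHMT2 HKO mouse 2 and 8 without SHMT2 HKO mouse 1. *Fgf21* itself, listed with the 10 genes, did not pass the test. Of 7 p53 targets only *Phlda3* was called, with a log2 fold change of -1.61, and of 11 immediate early genes 3 fell (*Ier3* -1.62, *Egr1* -1.23, *Junb* -0.88).

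Of the 4 genes with a response element core in the printed stretches, *Asns* and *Trib3* fell. *Fgf21* overlapped between genotypes, with a fitted log2 fold change of -0.56. Only *Chac1* had a fitted value above 0 (1.23, adjusted p = 0.0519 by edgeR's quasi-likelihood test), and it was raised in 2 of 3 SHMT2 HKO mice. A link between the core and the direction was not tested. *Sesn2*, which fell, held no core in its window.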

How the data were processed

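The authors trimmed reads with Trimmomatic 0.36, aligned them with STAR 2.5.2b to GRCm38 with ERCC sequences and, per the labels, counted them with featureCounts of Subread 1.5.2. The authors deposited the raw counts per gene, with no normalization. The strand setting and the handling of reads over overlapping genes are not given in the sources used here. The table held 49763 entries, of which 92 ERCC RNAs were left out of library sizes, and 259 gene IDs had no match in the GENCODE annotation used for names, with 0.0116% of counts.

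Libraries from 6 mice, 3 per genotype, were mapped by their labels. The labels number the livers within a genotype, and p-values set the difference between genotypes against the spread among livers of the same genotype. Genes were filtered with filterByExpr, scaled by TMM and tested with the quasi-likelihood F test of edgeR 4.0.16 in R 4.3.3 (robust dispersions, two-sided, no covariates), with Benjamini-Hochberg adjustment over 16089 genes. Every adjusted p is from this test unless another tool is named. The standard error is the absolute log2 fold change divided by the root of F. CPM used TMM-scaled library sizes, and 3 counts were taken as the floor. Replicate numbers did not pair the mice. Alternatives were DESeq2 1.42.0, limma-voom (limma 3.58.1, the tool of the study's methods), other scalings and filters, the replicate block, the cutoff of the study (p under 0.05, adjusted p under 0.25) and leaving out each mouse. The code was tested on simulated data.

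The 10 genes and all lists were chosen with earlier results of these data known, so lists are given by counts and medians only. Named from each list were the 2 strongest calls per direction, the eIF2 alpha kinases, *Atf3*, *Cebpb*, *Nupr1* and *Slc7a11*. *Eif2s3x*, *Slc1a5*, *Slc6a9*, *Psat1*, *Mthfd2*, *Cth*, *Dars*, *Farsb*, *Fgfr2*, *Gfral*, *Trap1*, *Clpp*, *Dnaja3*, *Cpt1a*, *Creb3l3* and *Junb* were named after their values were seen. Some results of this rule are not reported here. Promoter sequences are RefSeq, GRCm38.p6.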

Additional observations from a re-analysis of the deposited data

How the results depend on the processing

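Of 160 values of the 10 genes under 16 alternative fits, 133 kept direction and side of the threshold, 9 passed it newly, 9 no longer passed it and 9 turned in direction. The count of genes called higher, 0, became 1 (*Chac1*) with DESeq2 (15.8% of all genes), with median-of-ratios factors (13.0%) and at the cutoff of the study's methods (19.5%). The count called lower, 3, became 5 without TMM, where the share of all genes called lower went from 16.5% to 30.6%, and 2 on the ERCC scale (17.1%). With 1 mouse left out, 0 to 1 were higher and 1 to 5 lower. Replicate numbers did not pair the mice (correlations of deviations -0.08 to 0.01), and with the replicate block 0 were higher and 2 lower, *Sesn2* having an adjusted p of 0.0532 by edgeR's quasi-likelihood test. No other of the 10 calls changed with that block. *Gdf15* turned to -0.16 with limma-voom, -0.052 without TMM, -0.037 on the ERCC scale and -0.15 with the block, and ranged from -0.74 to 0.75 with 1 mouse left out. *Ppp1r15a* ranged from -0.088 to 0.020, *Eif2ak4* from -0.14 to 0.031 and *Cebpb* from -0.18 to 0.66 in those fits. Without TMM, *Atf4* was -0.21, *Eif2ak1* -0.0046, *Eif2s3x* -0.012, *Cebpb* -0.039, *Farsb* -0.030 and *Dnaja3* -0.047. On the ERCC scale, where the median of all genes was -0.69, *Atf4* was -0.54, *Eif2ak1* -0.30, *Ppp1r15b* -0.13, *Eif2s3x* -0.29, *Cebpb* -0.10, *Aars* -0.20, *Tars* -0.29, *Dars* -0.26, *Farsb* -0.34, *Chac2* -0.081, *Hspe1* -0.026, *Hspd1* -0.061, *Trap1* -0.18, *Clpp* -0.30, *Dnaja3* -0.35, *Cpt1a* -0.12 and *Creb3l3* -0.15. These are log2 fold changes, and which scale is nearer to RNA per cell was not tested. As a share of the TMM-scaled library, mitochondrially encoded counts were 2.998% in the fl/fl and 5.43% in the HKO genotype. In the part of the promoter window before the start, 3.45% of all windows held the response element core. Of the counts per list, DESeq2 raised those higher to 8 of 11 mitochondrial chaperones (5 here) and 4 of 8 hepatocyte markers (2 here), and the replicate block lowered them to 8 of 19 ER genes (13 here), 3 chaperones and 1 tRNA synthetase (4 here). Without TMM 2 of 11 PPAR alpha targets were higher (5 here), and on the ERCC scale 0 genes of the ER, chaperone, PPAR alpha, eIF2 and synthetase lists. *Asns* rests on 13 to 73 counts per SHMT2 HKO liver and *Slc7a11* on 5 to 20.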
